A study of Mus musculus with 15 samples.

Results

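Thy1, Pdgfra, Pdgfrb, Cd34, Ly6a, Mfap5, Clec3b, Gsn, Dpp4 and Tcf7l2 are 10 genes commonly used to recognise fibroblasts and fibro-adipogenic progenitors (FAPs) in muscle. They were followed across 3 ages in gastrocnemius, the large calf muscle. Members were taken by symbol, with every probe that the platform annotation gives for them. Of the 10 genes, 9 had probes, 11 in all, out of 16593 named genes and 25697 probes on the array. No probe carries the symbol Ly6a, the gene of the surface antigen Sca-1, so Ly6a was not analysed here.

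The samples were total RNA of flash-frozen gastrocnemius from 15 male C57BL/6 mice, 1 Illumina MouseRef-8 bead array per mouse. The animals were C57BL/6J mice of the Jackson Laboratory on house chow, with no transgene and no treatment. Each age had 5 mice: young at 5 months, middle-aged at 17 months and old at 28 months. The muscle was not sorted into cell types. Between 11534 and 12593 probes per array were above background, meaning a detection p under 0.05 against the negative control beads, and the number of arrays limits the precision. The labelled tissue was checked against muscle fibre genes: 13 of 13 listed were measured, their summed normalised intensity lay between 325841 and 389045 on every array, and their median change between old and young was 0.09 on the log2 scale.

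FAPs are mesenchymal cells that lie between the muscle fibres, outside the basal lamina. They make much of the muscle's collagen and other matrix, support muscle stem cells after injury, and can turn into fat cells or matrix-depositing fibroblasts. The receptor PDGFRA with SCA-1 and CD34 defines them in mouse cell sorting, PDGFRB marks pericytes as well, and DPP4 and MFAP5 belong to fibroblasts thought to serve as a reserve for other fibroblasts. None of the 10 genes is exclusive to these cells. Mouse THY1 is also found on T cells and nerve cells, CD34 on endothelium, DPP4 on T cells and some endothelium, and gelsolin in muscle fibres and many other cells.

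Thy1 was lower in old muscle, and it was the marker that passed the test. Of the 9 measured genes, 1 was called in old against young, in the lower direction, at a Benjamini-Hochberg adjusted p under 0.05 over 9470 features. In the same comparison 3.31% of all features were called in either direction and 1.58% were called lower. Values are log2 normalised intensities, so a difference of 1 stands for a doubling. The 9 markers together moved little: their median log2 fold change was -0.11, against -0.02 for all features, and 7 of 9 estimates were negative, against 53.2% of all features. No marker separated the old from the young arrays completely (0 of 9 without overlap, against 4.67% of features).

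Thy1 encodes a small glycoprotein anchored to the outer cell membrane by a lipid and carried by most FAPs. The old arrays gave 6.78, 7.81, 6.34, 6.90 and 7.27 for replicates 1 to 5, and the young arrays gave 7.83, 7.95, 8.20, 8.34 and 7.72. Of the old arrays, 4 lay under every young array and old replicate 2 lay within the young range. The means were 7.02 ± 0.55 in old and 8.01 ± 0.26 in young muscle (SD, n = 5 each). Thy1 was 1.98-fold lower in old muscle, a log2 fold change of -0.99 ± 0.27 (SE) with a 95% interval of -1.55 to -0.43 and a limma adjusted p of 0.0498. In bulk tissue, fewer Thy1-bearing cells and less Thy1 RNA per cell cannot be told apart.

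The adjusted p of Thy1 lay just under the threshold, and the call depended on the arrays and settings used. Leaving out 1 array at a time kept it without middle-aged replicate 5 (adjusted p = 0.0163), old replicate 2 (0.0168) or old replicate 5 (0.0314), and ended it without any of the other 12, namely each young array, old replicates 1, 3 and 4, and every middle-aged array but replicate 5. Without those, the adjusted p lay between 0.0532 and 0.125 and the log2 fold change between -1.06 and -0.81. Thy1 was called under 10 of the 30 alternatives tried, of which 1 was the methods' t-test at its own limits. The estimate was negative throughout, and over the 29 that give an adjusted p it ran from 0.00557 to 0.157. Old replicate 3 and middle-aged replicate 5, which stood apart by their marker levels as described below, held the lowest Thy1 values of their groups. Without both the log2 fold change was -0.82 with an adjusted p of 0.019. This alternative was chosen after the values were seen, and its SE was 0.19, against 0.27 with all arrays. Without old replicate 3 alone the adjusted p was 0.0824.

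**Figure D1:**
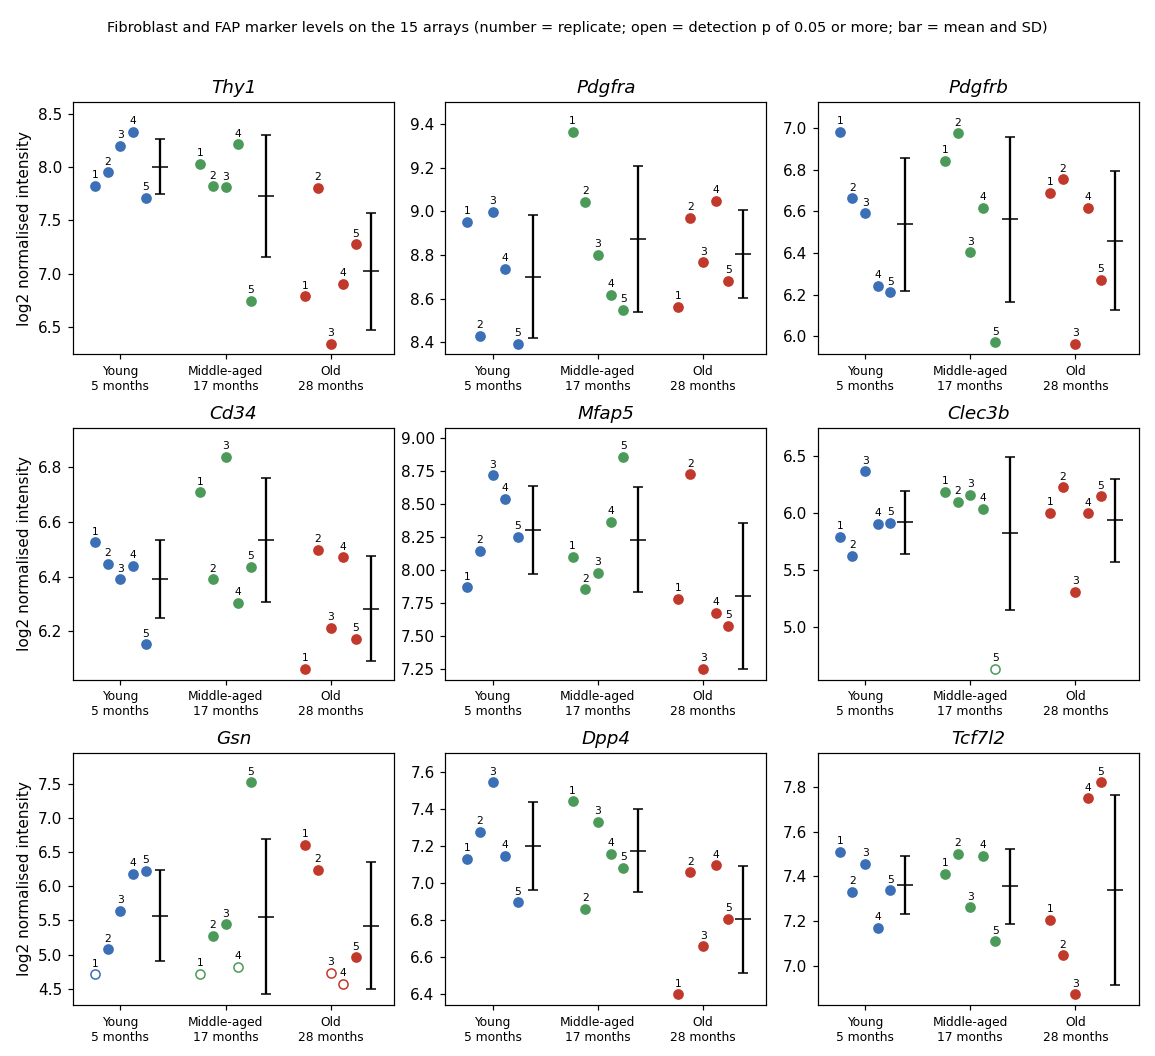
Log2 normalised intensity of the 9 measured markers on the 15 arrays by age, with the replicate number above each point, open points for a detection p of 0.05 or more, and the group mean and SD to the right. Thy1 and Mfap5 are each lower on 4 of 5 old arrays than on every young array, and all 9 markers overlap between the ages.

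Middle-aged muscle held Thy1 values of 8.03, 7.82, 7.81, 8.22 and 6.74, with a mean of 7.73 ± 0.57 (SD, n = 5). All but replicate 5 lay within the young range. Old against middle-aged muscle gave a log2 fold change of -0.70 ± 0.27 (unadjusted p = 0.0166, adjusted p = 0.299), and middle-aged against young muscle one of -0.28 ± 0.27 (adjusted p = 1). The difference between the later and the earlier step was -0.42 ± 0.46 (adjusted p = 0.973), so Thy1 was not shown to move more in one step than in the other. The order of the means was young, middle-aged, old, and neither pair of neighbouring ages passed the adjusted test.

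Over all markers, 0 of 9 were called in old against middle-aged (0.317% of features), 0 of 9 in middle-aged against young (0.0106%) and 0 of 9 in the later against the earlier step (0.0211%), by limma after adjustment. At an unadjusted p under 0.05 the counts were 2 of 9 in old against young (18.9% of features), 2 of 9 in old against middle-aged (12.2%), 0 of 9 in middle-aged against young (5.07%) and 0 of 9 between the steps (4.56%). Thy1 and Dpp4 were the 2 genes in both of the first comparisons, which share the old arrays. Estimates were negative for 8 of 9 markers in old against middle-aged (53.5% of features) and for 6 of 9 in middle-aged against young (50.6%). No marker separated its groups in old against middle-aged (1.5% of features) or in middle-aged against young (2.46%).

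Dpp4, the gene of a membrane peptidase that cuts dipeptides from incretins and chemokines, had the next lowest p. Its old arrays gave 6.40, 7.06, 6.66, 7.10 and 6.81, and its young arrays 7.13, 7.28, 7.55, 7.15 and 6.90. On every old array but replicates 2 and 4 the level was under all 5 young values. Means were 6.80 ± 0.29 in old and 7.20 ± 0.24 in young muscle, a log2 fold change of -0.40 ± 0.16 (95% interval -0.74 to -0.05, unadjusted p = 0.0264, adjusted p = 0.195). Middle-aged muscle, at 7.44, 6.86, 7.33, 7.16 and 7.08, was close to young muscle (-0.03 ± 0.16). The difference of old from middle-aged muscle was -0.37 ± 0.16 (unadjusted p = 0.036, adjusted p = 0.379). Dpp4 did not pass the test in any comparison.

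Cd34 encodes a sialomucin of blood-forming, endothelial and mesenchymal progenitor cells. Its 15 values lay between 6.06 and 6.84, and its spread within groups, an SD of 0.19, was at the 21.8th percentile of all features. The means were 6.39 ± 0.14 in young, 6.53 ± 0.23 in middle-aged and 6.28 ± 0.19 in old muscle. Old against young muscle differed by -0.11 ± 0.14 (95% interval -0.40 to 0.19, adjusted p = 0.721) and old against middle-aged by -0.25 ± 0.14 (adjusted p = 0.479). The 95% interval of old against young did not reach a halving of the normalised intensity of the 1 Cd34 probe.

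Pdgfra and Pdgfrb encode the 2 receptor tyrosine kinases for platelet-derived growth factor (PDGF). Pdgfra, the defining receptor of FAPs, averaged 8.70 ± 0.28 in young, 8.87 ± 0.33 in middle-aged and 8.81 ± 0.20 in old muscle, with all 15 values between 8.39 and 9.36. Old against young muscle gave 0.10 ± 0.17 (adjusted p = 0.784), with a 95% interval of -0.25 to 0.46 for the normalised intensity of its 1 probe. Pdgfrb averaged 6.54 ± 0.32 in young, 6.56 ± 0.40 in middle-aged and 6.46 ± 0.33 in old muscle, and old differed from young by -0.08 ± 0.21 (95% interval -0.51 to 0.36, adjusted p = 0.88). The lowest Pdgfrb values were 5.97 on middle-aged replicate 5 and 5.96 on old replicate 3.

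Mfap5, Clec3b and Gsn encode secreted proteins. Mfap5, a glycoprotein of elastic microfibrils, gave 7.78, 8.72, 7.25, 7.67 and 7.58 on the old arrays and 7.87, 8.14, 8.71, 8.54 and 8.25 on the young arrays. All old arrays but replicate 2 were under every young array, and old replicate 2 was just above them all. The log2 fold change was -0.50 ± 0.24 (95% interval -1.01 to 0.01, adjusted p = 0.272). Middle-aged muscle gave 8.10, 7.85, 7.98, 8.36 and 8.85, which overlaps both other ages. Leaving out 1 array at a time moved the log2 fold change of Mfap5 between -0.74 and -0.36. The -0.74 came without old replicate 2, the array that went against the fall, and was not called (limma adjusted p = 0.0664).

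Clec3b, the gene of tetranectin, which binds plasminogen, averaged 5.92 ± 0.28 in young, 5.82 ± 0.67 in middle-aged and 5.93 ± 0.36 in old muscle. Old and young muscle did not differ detectably (0.02 ± 0.26, 95% interval -0.52 to 0.56, adjusted p = 0.983). A single array, middle-aged replicate 5 at 4.63, was not above background, and the other middle-aged arrays lay between 6.03 and 6.18. Old replicate 3, at 5.31, was below the other old arrays, which lay between 6.00 and 6.22.

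Gsn, the gene of gelsolin, which cuts and caps actin filaments, was above background on 4 of 5 young, 3 of 5 middle-aged and 3 of 5 old arrays. Its values ran from 4.71 to 6.23 in young, 4.72 to 7.52 in middle-aged and 4.58 to 6.60 in old muscle. The spread within groups was an SD of 0.93, at the 99.8th percentile of features, so the 95% interval of old against young, -1.17 to 0.88, leaves room for a halving of Gsn. At that spread no difference between old and young muscle was detected (-0.15 ± 0.49, adjusted p = 0.906). The highest value, 7.52, was on middle-aged replicate 5.

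Tcf7l2 encodes a transcription factor that carries Wnt signals to DNA by binding beta-catenin, and it marks connective tissue fibroblasts in muscle. It was the 1 member with several probes. Probe ILMN_2641647 was above background on all 15 arrays. Probe ILMN_3006739 was above background on 0 young, 1 middle-aged and 2 old arrays and probe ILMN_1245997 on 0 of 15, so both stayed out of the test. By the first probe the means were 7.36 ± 0.13 in young, 7.36 ± 0.17 in middle-aged and 7.34 ± 0.42 in old muscle, and old differed from young by -0.02 ± 0.17 (95% interval -0.38 to 0.34, adjusted p = 0.963). The old arrays lay further apart than those of either other age, with 7.75 and 7.82 on replicates 4 and 5 and 6.88 to 7.21 on the rest. That difference in spread was not tested.

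**Figure D2:**
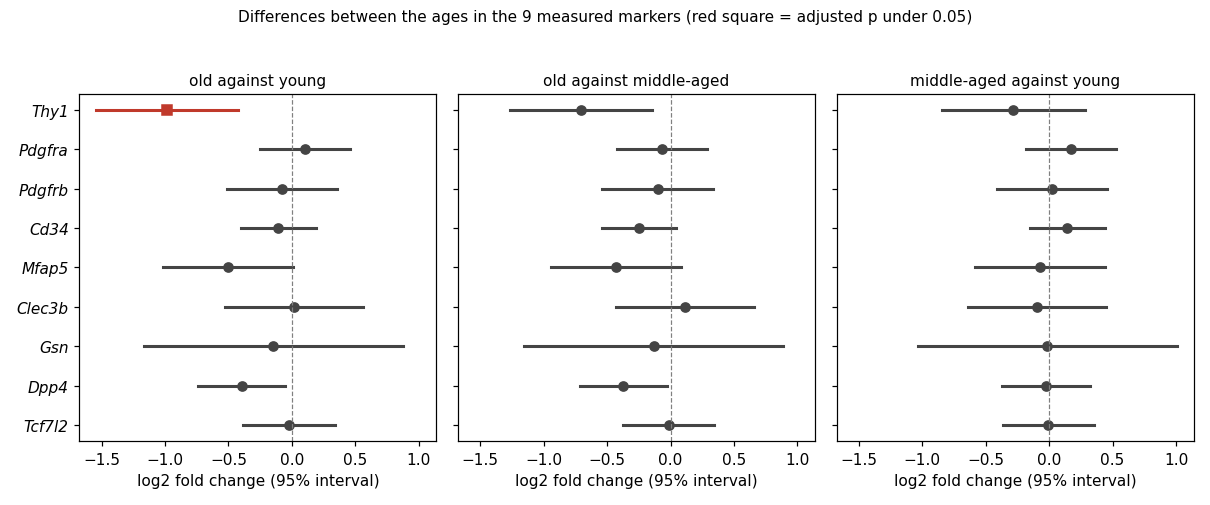
Log2 fold change of the 9 measured markers with its 95% interval, in each of the 3 comparisons of ages. Thy1 in old against young (-0.99) is the 1 called estimate, and the interval of Dpp4 also stays below 0 in both comparisons of old muscle.

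The markers did not vary as 1 block. Over the 36 pairs of measured markers, Pearson's r across the 15 arrays had a median of 0.23 and ran from -0.50 to 0.75, and 24 pairs were positive. No pair passed after adjustment over the 36 (permutation test with 100000 resamples, two-sided), and 8 had an unadjusted p under 0.05. Cd34 and Dpp4 came closest, with r = 0.75 (permutation p = 0.00144, adjusted p = 0.0518) and Spearman's rho = 0.65 (permutation p = 0.0112, adjusted p = 0.202), and r was 0.67 without the 2 arrays farthest from the Cd34 median. Thy1 and Dpp4 followed, with r = 0.67 (permutation p = 0.00549, adjusted p = 0.0988) and rho = 0.74 (permutation p = 0.00221, adjusted p = 0.0796), and r was 0.70 without the 2 farthest arrays and 0.45 once each age's mean was removed. The pair of PDGF receptors had r = 0.54 (permutation p = 0.0402, adjusted p = 0.184) and rho = 0.48 (permutation p = 0.076, adjusted p = 0.304), and r was 0.43 without the 2 farthest arrays.

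A pair of arrays stood apart by their marker levels and carried the widest marker deviations. Old replicate 3 was below the 15-array mean in 9 of 9 markers, with a median deviation of -0.56, and over all features its median correlation with the other arrays was 0.957, against 0.980 to 0.990 for the rest. Middle-aged replicate 5, whose median correlation of 0.981 lay within the range of the rest, combined low Thy1 and Clec3b with the highest Gsn and Mfap5. The 54 cytosolic ribosomal protein genes measured, a list made after the values were seen, had median deviations of -0.48 on old replicate 3 and -0.43 on middle-aged replicate 5, against -0.05 to 0.24 on the other 13 arrays. Across the 15 arrays the level of these ribosomal genes had r = 0.79 with Clec3b, 0.70 with Tcf7l2, 0.69 with Pdgfrb, 0.43 with Thy1 and 0.07 with Dpp4, as a description (the corresponding rho values were 0.32, 0.58, 0.52, 0.12 and -0.06). Once age means were removed, these ribosomal genes had r = 0.79, 0.71, 0.72, 0.64 and 0.15 with the same markers in that order. Their part in the marker levels was not tested.

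**Figure D3:**
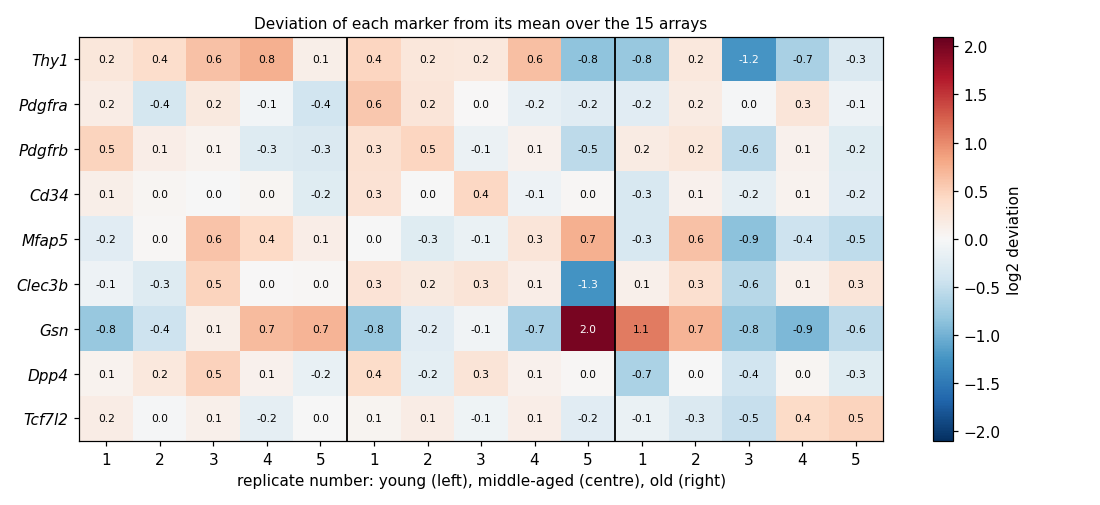
Deviation of each marker from its own mean over the 15 arrays, in log2 units, with arrays by age and replicate number. Old replicate 3 is negative in all 9 rows, and the strongest cells are Gsn (2.0) and Clec3b (-1.3) on middle-aged replicate 5.

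In old muscle 3 collagen genes fell alongside Thy1. FAPs are a main source of collagen in muscle. Of 11 collagens listed, 9 were measured, 3 fell in old against young muscle and none rose, and all 9 estimates were negative with a median of -0.65 (all features -0.02). Col1a1 and Col1a2, the chains of type I collagen, had log2 fold changes of -1.86 ± 0.32 (adjusted p = 0.00334) and -1.35 ± 0.19 (adjusted p = 0.000668). Col15a1, a basement membrane zone collagen, had one of -1.31 ± 0.23 (adjusted p = 0.00401). These 3 calls held under all 28 alternatives. None of the 9 was called in either comparison with middle-aged muscle. The list was chosen with earlier results of these arrays known.

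The same old arrays were low in Thy1 and in collagens. The median deviation of the 9 collagen genes was -0.65, 0.14, -0.71, -0.72 and -0.17 on old replicates 1 to 5, between 0.01 and 0.28 on the middle-aged arrays and between 0.15 and 0.75 on the young arrays. Old replicates 1, 3 and 4, the lowest in collagens, were also the lowest 3 old arrays in Thy1. Across all arrays Thy1 and this collagen median had r = 0.84 (permutation p = 0.00023, adjusted p = 0.00207 over 9 relations) and rho = 0.71 (permutation p = 0.00416, adjusted p = 0.0374), and r was 0.89 without the 2 arrays farthest from the Thy1 median and 0.67 once age means were removed. Mfap5 (r = 0.68, permutation p = 0.0052, adjusted p = 0.0156, rho = 0.51 with permutation p = 0.053) and Dpp4 (r = 0.69, permutation p = 0.00472, adjusted p = 0.0156, rho = 0.56 with permutation p = 0.0331) also passed by r, and not by rho after adjustment. Without the 2 farthest arrays r stayed at 0.68 for Mfap5 and was 0.45 for Dpp4, whose relation rests in part on old replicate 1 and young replicate 3. Once age means were removed r was 0.55 for Mfap5 and 0.43 for Dpp4. The permutations moved arrays between the ages, so the p-values of these relations, that of Thy1 included, also hold the differences between ages. The r with age means removed were not tested. Among the 5 middle-aged arrays, too few for a correlation of their own, higher Mfap5 and Dpp4 did not go with higher collagen. Pdgfra (r = 0.05), Tcf7l2 (0.06), Gsn (0.15), Pdgfrb (0.20), Clec3b (0.27) and Cd34 (0.38) did not pass.

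**Figure D4:**
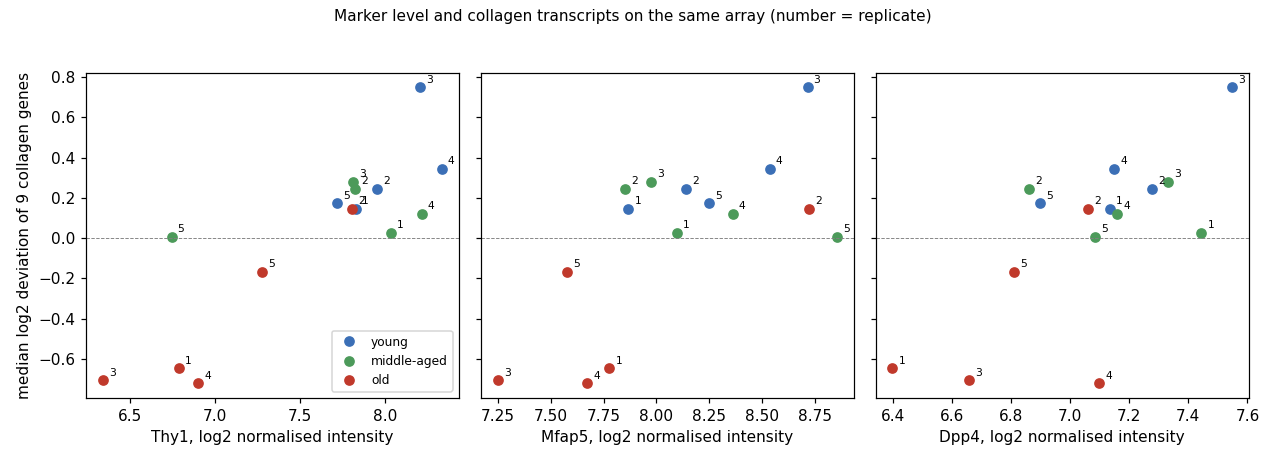
Median log2 deviation of 9 collagen genes against the log2 normalised intensity of Thy1, Mfap5 and Dpp4 on the same 15 arrays, coloured by age and numbered by replicate. Old replicates 1, 3 and 4 sit at the bottom of each panel, between -0.65 and -0.72, and old replicate 2 sits among the young and middle-aged arrays.

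The 5 named genes whose levels were most like Thy1 over the 15 arrays, among 8759 compared, were Slc25a39 (r = 0.92), Tcf15 (0.91), Ung (0.91), Serpinh1 (0.91) and Zfp710 (0.90). Serpinh1 encodes HSP47, the chaperone that folds procollagen in the endoplasmic reticulum, Ung the enzyme that removes uracil from DNA, Slc25a39 a mitochondrial carrier for glutathione, and Tcf15 a transcription factor of paraxial mesoderm and endothelium. Serpinh1 (-0.90, adjusted p = 0.0181) and Ung (-0.93, adjusted p = 0.0261) fell in old against young muscle, and the other 3 did not pass the test (-0.43 to -0.67). The call of Serpinh1 ended without young replicate 3 (adjusted p = 0.0518) or old replicate 1 (0.0514). Serpinh1 was not above background on every array, so it was not tested where detection on all arrays was asked for. Its old arrays lay between 4.48 and 5.75. That of Ung ended under median scaling (0.0962) and without old replicate 4 (0.0603), young replicates 3 (0.0645), 4 (0.0686) or 5 (0.0691), or both young replicate 4 and middle-aged replicate 2 (0.0767). With age means removed, r with Thy1 was between 0.82 and 0.89 for the 5 genes. Like Thy1, all 5 genes had the lowest values of their groups on middle-aged replicate 5 and old replicate 3. Their r without these arrays was not computed. Among the 8759 genes ordered by r with Thy1, Col1a1 (r = 0.80) and Col1a2 (0.79) were 105th and 117th. Dpp4 was 532nd and Col3a1 (0.50) was 1529th in this order.

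Looked up after the values were seen, the genes most like the other markers differed from marker to marker. Mfap5 went with Gpx8 (r = 0.91), Col16a1 (0.89) and Anxa2 (0.88), Tcf7l2 with Ctnnbip1 (0.91), an inhibitor of beta-catenin binding to TCF factors, and Clec3b with Snx8 (0.93), Lsm7 (0.93) and Ubl5 (0.93). Gsn went with the mitochondrial genes Suclg1 (0.87), Atad3a (0.87) and Atp5pb (0.86). These r are over 15 arrays and are a description.

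The other FAP and fibroblast genes listed beside the members held no called gene. Of 26 listed, 19 were measured, with a median of -0.20 in old against young and 14 of 19 estimates negative. Serpinf1, the gene of the secreted factor PEDF, gave -0.57 (adjusted p = 0.129), and S100a4, a calcium-binding protein of motile fibroblasts, gave -0.35 (adjusted p = 0.14). In old against middle-aged muscle the median was -0.23, with 15 of 19 negative, and in middle-aged against young it was 0.03, with 6 of 19 negative. The median deviation of this list on old replicate 3 was -0.61, and the other 4 old arrays lay between -0.14 and 0.17.

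Partners of 3 single markers held no called gene in old against young muscle. PDGF ligands and receptor signalling genes (11 of 15 measured) had 0 called and a median of 0.10 in old against young, with Ptpn11, a phosphatase that binds the receptors, at -0.25 (adjusted p = 0.236) and the ligand Pdgfa at -0.46 (adjusted p = 0.285). Wnt transcription partners of Tcf7l2 (9 of 15 measured) had 0 called and a median of -0.20, with beta-catenin itself, Ctnnb1, at 0.19 (adjusted p = 0.321) and the corepressor Tle1 at -0.38 (adjusted p = 0.343). Microfibril and elastic fibre partners of Mfap5 (9 of 16 measured) had 0 called and a median of -0.11, with elastin, Eln, at -0.58 (adjusted p = 0.0555) and Ltbp1 at 0.26 (adjusted p = 0.407).

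Among the actin severing and capping relatives of Gsn, 10 of 12 were measured and 1 was called. This was Avil, the gene of the gelsolin relative advillin, known mainly from sensory nerve cells, which fell by 0.78 on the log2 scale in old against young muscle (adjusted p = 0.0202), while the list's median was 0.13. The call of Avil ended under median scaling (adjusted p = 0.129), with only the arrays compared (0.0587), and without young replicate 3 (0.051), young replicate 4 (0.0602) or both young replicate 4 and middle-aged replicate 2 (0.0844). The plasminogen system around Clec3b (4 of 10 measured) had 0 called and a median of -0.19, with S100a10, a plasminogen-binding partner of annexin A2, at -0.48 (adjusted p = 0.266) and the activator Plau at -0.23 (adjusted p = 0.639). Dipeptidyl peptidase relatives and substrates of Dpp4 (9 of 10 measured) had 0 called and a median of 0.03, with Dpp6 at -0.28 (adjusted p = 0.228) and Dpp7 at -0.21 (adjusted p = 0.424). The sialomucin relatives and selectin partners of Cd34 (5 of 7 measured) had 0 called and a median of 0.15, with Podxl2 at -0.45 (adjusted p = 0.287) and Selp at 0.15 (adjusted p = 0.608).

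The Ly6 family beside Ly6a had 5 of 11 genes measured, 0 called and a median of -0.20. Ly6g6d gave -0.61 (adjusted p = 0.0961), and Gpihbp1, which carries lipoprotein lipase across endothelium, gave -0.22 (adjusted p = 0.553). None of these probes stands in for Ly6a. In neither comparison with middle-aged muscle was a gene of these 8 partner lists called.

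Markers of other cells that carry these genes were set beside the fall of Thy1. Of 13 T cell genes 3 were measured, with 0 called, and Cd3d, Cd4 and Cd8a were above background on no array. The summed normalised intensity of the 3 ran from 122 to 155 in young, 96.4 to 168 in middle-aged and 106 to 215 in old muscle, with Zap70 at 0.39 (adjusted p = 0.123) and Il7r at 0.14 (adjusted p = 0.569) in old against young. Of 14 nerve and Schwann cell genes 6 were measured, with S100b, Nefl, Nefm and Tubb3 above background on no array. Their summed intensity ran from 767 to 1064 in young, 849 to 1304 in middle-aged and 742 to 1216 in old muscle, and Uchl1, a neuronal ubiquitin hydrolase, rose by a log2 fold change of 1.12 (adjusted p = 0.0116).

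In old muscle 5 macrophage genes rose. Of 14 listed, 11 were measured and all 11 estimates in old against young were positive, with a median of 0.82. Lgals3 (1.56, adjusted p = 0.000963), Lyz2 (1.16, adjusted p = 0.00713), C1qb (0.96, adjusted p = 0.022), Adgre1 (0.87, adjusted p = 0.0406) and Fcgr3 (0.82, adjusted p = 0.0169) were called, and Lgals3 was also called in old against middle-aged muscle (1.42, adjusted p = 0.00547). Both calls of Lgals3 and that of Lyz2 held under all 28 alternatives. Adgre1 was called under 14 of 28 (adjusted p up to 0.105) and C1qb under 20 of 28 (up to 0.0874), and both were lost without old replicates 1 or 2 or young replicates 1, 2 or 5. Adgre1 was also lost without old replicate 4, young replicates 3 or 4, or middle-aged replicates 1 or 2. The call of Fcgr3 ended with only the arrays compared (0.0529), and Fcgr3 was not tested where detection on all arrays was asked for. The summed intensity of the list was 1184 to 1906 in young, 1512 to 2512 in middle-aged and 2397 to 4255 in old muscle, and Itgam was above background on no array. Its part in the marker levels was not tested.

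Lists for vessel and muscle stem cells, which neighbour FAPs, held no called gene. Endothelial genes (11 of 13 measured) had 0 called and a median of -0.14, with Tie1 at -0.55 (adjusted p = 0.0572) and Kdr at -0.29 (adjusted p = 0.193). Pericyte and smooth muscle genes (10 of 12 measured) had 0 called and a median of -0.02, with Mcam at -0.37 (adjusted p = 0.254) and Higd1b at -0.44 (adjusted p = 0.442). Satellite cell genes (3 of 8 measured) had 0 called, a median of 0.18, and Itga7 at 0.20 (adjusted p = 0.423) and Vcam1 at 0.18 (adjusted p = 0.639).

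Fat cell genes (6 of 10 measured) had 0 called in any comparison, with medians of 0.57 in old against young and 0.82 in middle-aged against young muscle. Slc2a4, the insulin-regulated glucose transporter that muscle fibres also make, gave -0.45 (adjusted p = 0.129), and adiponectin, Adipoq, gave 0.84 (adjusted p = 0.315) in old against young. Tendon genes (6 of 8 measured) had a median of -0.36 and 1 called gene, Kera, the gene of the corneal and tendon proteoglycan keratocan, which fell by 0.96 on the log2 scale in old against young muscle (adjusted p = 0.0204). The call of Kera ended without old replicate 1 (adjusted p = 0.0558) or young replicates 1 (0.061) or 4 (0.0621), and Kera was not tested where detection on all arrays was asked for. Tendon genes were lowest on old replicates 3 (-0.69) and 4 (-0.50), which were also low in Thy1. Old replicate 1 and middle-aged replicate 5, low in Thy1 as well, had tendon gene deviations of 0.07 and 0.05. The amount of tendon in each sample was not tested. Of the muscle fibre genes, Pvalb (0.44, adjusted p = 0.177) and Mylpf (0.30, adjusted p = 0.265) had the lowest p and did not pass.

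**Figure D5:**
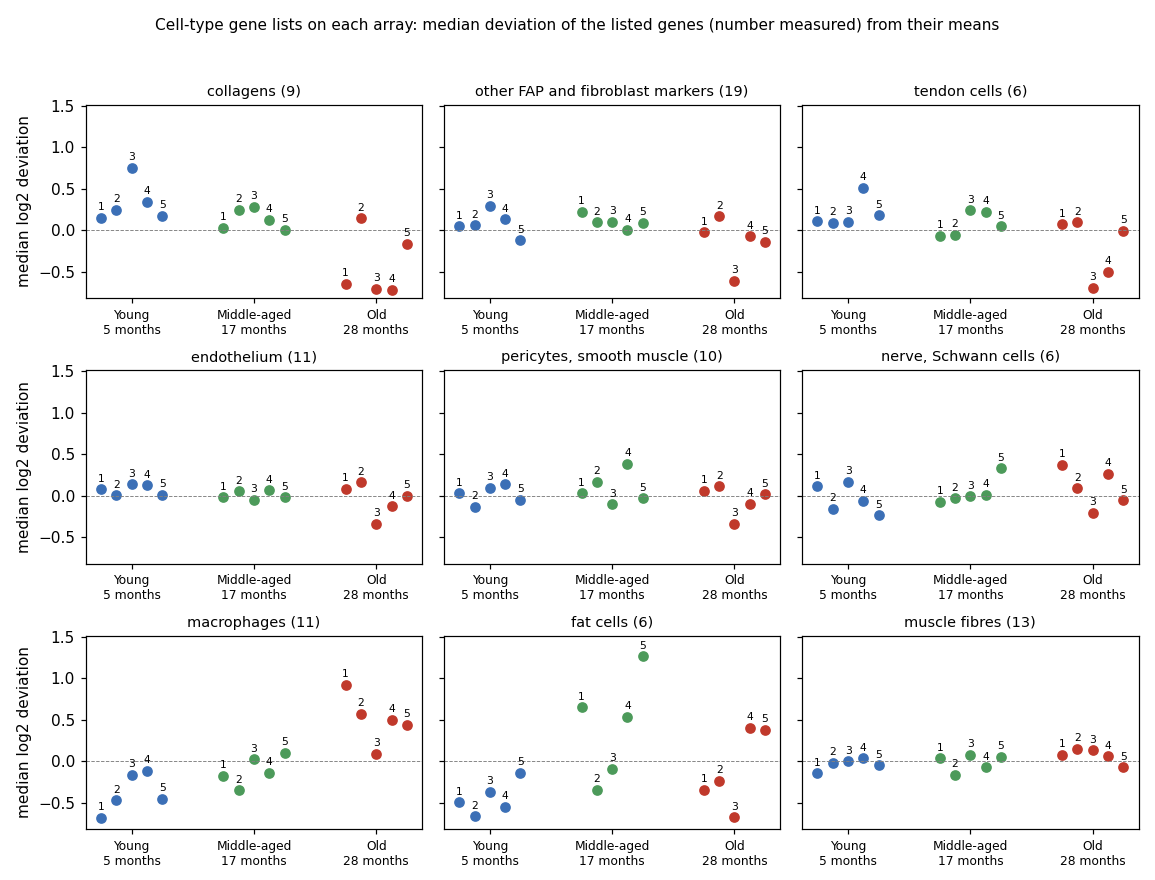
Median log2 deviation of the measured genes of 9 cell-type lists on each array, by age, with the replicate number above each point. Collagen genes are lowest on old replicates 1, 3 and 4, macrophage genes are above 0 on all 5 old arrays, and muscle fibre genes stay between -0.16 and 0.15.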

How the data were processed

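The authors amplified and labelled total RNA, hybridised it to the arrays and read them with GenomeStudio 2011.1. The deposited table gives the raw intensity of every probe, not background-subtracted and not normalised, and beside it a detection p-value against the array's negative control beads. The authors also deposited a score, the Z score of the natural log intensity within an array, which the intensities reproduced within 0.000924.

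Intensities were background-corrected and quantile-normalised on the log2 scale by the neqc function (R 4.3.3, limma 3.58.1, offset 16). Probes detected on at least 5 of 15 arrays were kept, with the brightest probe per gene, which gave 9470 features, 8760 of them named. Of 25697 probes, 23978 had 1 symbol, 0 had several and 1719 were unnamed here. A mean per age was fitted with lmFit and eBayes (intensity trend, all arrays in 1 model), and p-values were two-sided and adjusted by Benjamini-Hochberg over all features. The model was tested on simulated data with independent noise in each feature, which hold no deviations shared by many genes of an array. The labels do not say whether replicates shared a cage or litter. Genes of a list are named if called in any comparison, otherwise the 2 with the lowest p in old against young, and for a called marker the 5 genes most like it. The members and lists were chosen with earlier results of these data known. Alternatives covered scaling, background, filters, probes, the model, single arrays and the methods' t-test.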

Additional observations from a re-analysis of the deposited data

Results flagged for a closer look

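In 4 of the 27 marker and age groups, 1 array lay far from the other 4 of its group, by a gap of more than 0.71 of the group's range. For independent, normally distributed values, chance sets about 1 in 20 groups apart in this way. The 27 groups share the same arrays, and the rate in these data was not measured. Middle-aged replicate 5 accounted for 3 of the 4 groups. Its Thy1 level was 6.74, with the other middle-aged arrays between 7.81 and 8.22. Its Clec3b level was 4.63, not above background, with the others between 6.03 and 6.18. Its Gsn level was 7.52, with the others between 4.72 and 5.44. The remaining one was Clec3b on old replicate 3, at 5.31, with the other old arrays between 6.00 and 6.22. Both arrays were the lowest in cytosolic ribosomal protein genes, with median deviations of -0.43 and -0.48, and the part of that in the marker levels was not tested.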

How the results depend on the processing

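The count of markers called in old against young muscle was 1. It was 0 under median scaling, a background offset of 50, detection on all 15 arrays, no detection filter, every probe as its own feature, the replicate block, without the 2 arrays whose intensities carry 2 decimals (young replicate 4 and middle-aged replicate 2) and by the methods' t-test after Benjamini-Hochberg. It ranged from 0 to 1 when single arrays were left out. It stayed at 1 with the methods' Z scores, no background correction, no intensity trend, array weights, only the arrays compared, the methods' t-test at its own limits and, an alternative chosen after seeing the data, without old replicate 3 and middle-aged replicate 5. In old against middle-aged muscle the count was 0, and 1 with array weights (Thy1, -0.70 in the model without weights, adjusted p = 0.0336 with them). Under the replicate block Thy1 had an adjusted p of 0.0681. Deviations of same-numbered arrays correlated between -0.497 and 0.403, and over 0.1 in 3 of 15 pairs, against 17 of 60 pairs with different numbers. Whether equal numbers mark a shared batch cannot be told from these values. The counts in middle-aged against young and between the steps were 0 throughout. Apart from Thy1, no marker was called under any alternative in the 3 comparisons of ages, and 9 of 24 estimates kept their sign throughout. Over all features the 313 calls in old against young became 136 with median scaling (63.2% higher, against 52.1%), 870 with array weights, 178 with only the arrays compared, 148 without the 2 arrays with 2 decimals, 516 by the methods' t-test at its limits and 24 after adjustment. Leaving out single arrays moved them between 152 (without young replicate 5) and 710 (without old replicate 5), and leaving out the 2 arrays that stood apart gave 584. The 30 calls in old against middle-aged became 16 with detection on all arrays, 468 with array weights, 15 with only the arrays compared, 19 without the 2 arrays with 2 decimals, 274 by the methods' t-test at its limits and 1 after adjustment. Single arrays left out moved them between 15 (without middle-aged replicate 4) and 306 (without old replicate 5), and the 2 arrays that stood apart to 101. Of the calls 83.3% were higher, against 69.7% with the methods' Z scores, 43.8% with array weights, 40.2% without old replicate 5 and 65.3% without the 2 arrays that stood apart. The causes were not tested. Called genes in the collagen list numbered 3 to 7 over 28 alternatives, in the macrophage list 2 to 9, in the tendon list 0 to 2 and in the actin list 0 to 1. Gsn, above background on 10 of 15 arrays, was the least well measured marker.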
